A study of Mus musculus with 12 samples.

Results

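A group of 9 genes of the Hippo-YAP/TAZ system was examined in cultured mouse cardiac fibroblasts with and without Smad7, before and after stimulation with TGF-β1. They are the coactivators Yap1 and Wwtr1 (TAZ), their DNA-binding partner Tead1, the regulators Lats2, Amotl2 and Ajuba, and the target genes Ankrd1, Ctgf and Cyr61. The members are a fixed set of names from the pathway, with no threshold on their values, and are 9 of the 35275 genes in the deposited table and 9 of the 15150 genes tested, so every member passed the filter on low counts. The set was chosen with earlier results of these data known. Its counts and medians beside those of all tested genes are therefore a description. Ctgf and Cyr61 are listed under these symbols in the table and as Ccn2 and Ccn1 in GENCODE M21.

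The cells came from hearts of 12-week-old C57BL/6 mice that carry floxed Smad7 alleles (Smad7 fl/fl) and were used at passage 2. All 4 groups therefore share the floxed alleles and an adenoviral infection of 48 h at 100 MOI. Control cells, called wild type in the sample titles, received a GFP virus per the labels and an empty virus per the study's methods. The cells called Smad7-KO received a Cre-expressing virus. Each genotype was studied unstimulated and with 10 ng/ml TGF-β1, given for 2 h per the sample labels and for 4 h per the treatment protocol, with 3 poly(A) RNA-Seq libraries per group (12 libraries). The libraries are described as independent samples but not tied to separate animals or cultures, so p-values measure the spread between these libraries, which may be technical.

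Libraries held 19056916 to 25371321 counts (median 22660845). Smad7, the targeted gene, ranged from 71.4 to 77.2 CPM (read counts scaled to the TMM-adjusted library total) in unstimulated control cells and from 28.4 to 31.1 in unstimulated Smad7-KO cells, and from 142 to 150 against 70.0 to 80.8 with TGF-β1, so transcript remained in every Smad7-KO library. All 10 fibroblast markers passed the filter, with a summed level of 7437 to 11545 CPM across the libraries. The 10 macrophage markers, which also passed, summed to 7807 to 12107 CPM, so the cultures carried strong macrophage signal beside that of fibroblasts. Unstimulated control libraries 2 and 3 stood apart for several members: library 2 had the lowest level of Tead1, Lats2 and Amotl2 and the highest of Ankrd1 and Ctgf, and library 3 the highest of Tead1, Lats2 and Amotl2 and the lowest of Ankrd1 and Ctgf.

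YAP and TAZ are transcriptional coactivators that do not bind DNA themselves. They enter the nucleus when the Hippo kinases are quiet or when cells meet a stiff matrix, and there they act through TEAD factors. LATS kinases phosphorylate both coactivators and hold them in the cytoplasm, and angiomotins such as AMOTL2 can bind and retain them. Ajuba-family LIM proteins bind and restrain LATS. In fibroblasts, YAP and TAZ are known for matrix production and contractility, and the classic readouts of their activity are Ctgf, Cyr61 and Ankrd1. Transcript levels do not report where the YAP and TAZ proteins were or how they were phosphorylated.

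Because YAP and TAZ reach DNA through TEAD factors, the promoters were searched for the core TEAD letters GGAATG on both strands. RefSeq promoter windows of GRCm38.p6, from 250 bases before to 50 bases after a start site, were found for 7 of the 9 members (9 windows), and not for Tead1 and Ctgf. The letters were in 8 of the 9 windows and in at least 1 window of all 7 members, against 14.7% of the 32851 promoter windows of the same length. The upstream 250 bases are shown in full for Ankrd1 and Cyr61, the target genes that have a window, and for Ajuba, which like Ankrd1 holds the letters at 2 places. Each runs 5′ to 3′ on the gene's strand, on GRCm38.p6, with the TEAD letters or their reverse complement in capitals.
Ankrd1, chr19:36119845-36120094, minus strand: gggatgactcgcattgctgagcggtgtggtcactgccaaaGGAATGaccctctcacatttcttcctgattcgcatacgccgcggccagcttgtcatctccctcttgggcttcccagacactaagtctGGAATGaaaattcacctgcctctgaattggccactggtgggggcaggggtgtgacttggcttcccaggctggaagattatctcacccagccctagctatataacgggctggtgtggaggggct
Cyr61, chr3:145649986-145650235, minus strand: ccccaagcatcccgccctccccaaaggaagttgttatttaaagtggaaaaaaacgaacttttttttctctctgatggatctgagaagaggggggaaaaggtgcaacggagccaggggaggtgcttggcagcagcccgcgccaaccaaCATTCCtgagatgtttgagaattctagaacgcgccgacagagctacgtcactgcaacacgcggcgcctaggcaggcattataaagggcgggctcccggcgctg
Ajuba, chr14:54577662-54577911, minus strand: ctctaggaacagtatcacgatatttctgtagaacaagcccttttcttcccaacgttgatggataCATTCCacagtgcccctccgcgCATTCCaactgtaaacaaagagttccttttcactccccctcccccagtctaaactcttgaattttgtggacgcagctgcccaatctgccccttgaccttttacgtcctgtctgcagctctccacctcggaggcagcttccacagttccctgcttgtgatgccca

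The match lay 210 and 123 bases before the start site in Ankrd1, 186 and 164 bases before it in Ajuba, and 103 bases before it in Cyr61. The coactivator genes and Amotl2 carried the same letters, shown here as stretches of 40 bases around the match on the gene's strand. In Wwtr1 a pair of windows with different start sites shared 1 match, 136 or 170 bases before the start. In Yap1 the match was 141 bases and in Amotl2 65 bases before the start.
Yap1, chr9:8004715-8004754, minus strand: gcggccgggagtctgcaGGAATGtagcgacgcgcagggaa
Wwtr1, chr3:57576024-57576063, minus strand: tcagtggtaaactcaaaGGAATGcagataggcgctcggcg
Amotl2, chr9:102717722-102717761, plus strand: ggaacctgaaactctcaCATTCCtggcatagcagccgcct

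The AP-1 letters TGANTCA were in none of the 7 members' windows, against 7.81% of all windows. The SMAD letters CAGACA were in the windows of 2 members, Ankrd1 and Ajuba, against 21.0% of all windows, and shared no base with the TEAD letters there. A match of letters is a description and not evidence of binding, and the absence of a match says only that these letters are not in the window.

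On GRCm38, with positions from the deposited table, the target genes are short. Ankrd1 (ENSMUSG00000024803) lies at chr19:36111965-36119844, Ctgf (ENSMUSG00000019997) at chr10:24595442-24598683 and Cyr61 (ENSMUSG00000028195) at chr3:145646971-145649985. The coactivator and TEAD genes are long, with Yap1 (ENSMUSG00000053110) at chr9:7931999-8004596, Wwtr1 (ENSMUSG00000027803) at chr3:57455649-57575910 and Tead1 (ENSMUSG00000055320) at chr7:112679318-112906807. Lats2 (ENSMUSG00000021959) lies at chr14:57642077-57758388, Amotl2 (ENSMUSG00000032531) at chr9:102716672-102733418 and Ajuba (ENSMUSG00000022178) at chr14:54567469-54577661. Genes annotated on the opposite strand within Yap1, Wwtr1, Tead1, Lats2 and Ctgf reached at most 2.70 CPM in any library where they were in the table, and whether counting used strand is not given in the sources used here.

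Per unit of length, the 3 target genes were far more abundant than the genes that regulate them. In unstimulated control cells the deposited FPKM values were 405 ± 60.2 for Ankrd1 (SD, n = 3 here and below), 367 ± 101 for Ctgf and 338 ± 9.31 for Cyr61, and the library ranges of these neighbours overlapped. Amotl2 followed at 51.2 ± 18.2, then Wwtr1 at 32.8 ± 6.62, Lats2 at 26.8 ± 8.08, Tead1 at 22.9 ± 9.52 and Yap1 at 19.6 ± 3.19, a run in which each neighbour overlapped the next. Ajuba was lowest at 10.9 ± 1.34 FPKM, below every library of Yap1. FPKM order changed among the targets across the groups. Ctgf led in TGF-β1-stimulated control cells at 1321 ± 119 FPKM, above Cyr61 at 516 ± 29.5 and Ankrd1 at 409 ± 9.60. In unstimulated Smad7-KO cells Ankrd1 led at 260 ± 24.7 FPKM, and Cyr61 and Ctgf overlapped at 134 ± 9.07 and 133 ± 11.9. In TGF-β1-stimulated Smad7-KO cells Ctgf again led at 625 ± 51.9 FPKM, and Ankrd1 and Cyr61 overlapped at 246 ± 9.26 and 240 ± 7.11.

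**Figure D1:**
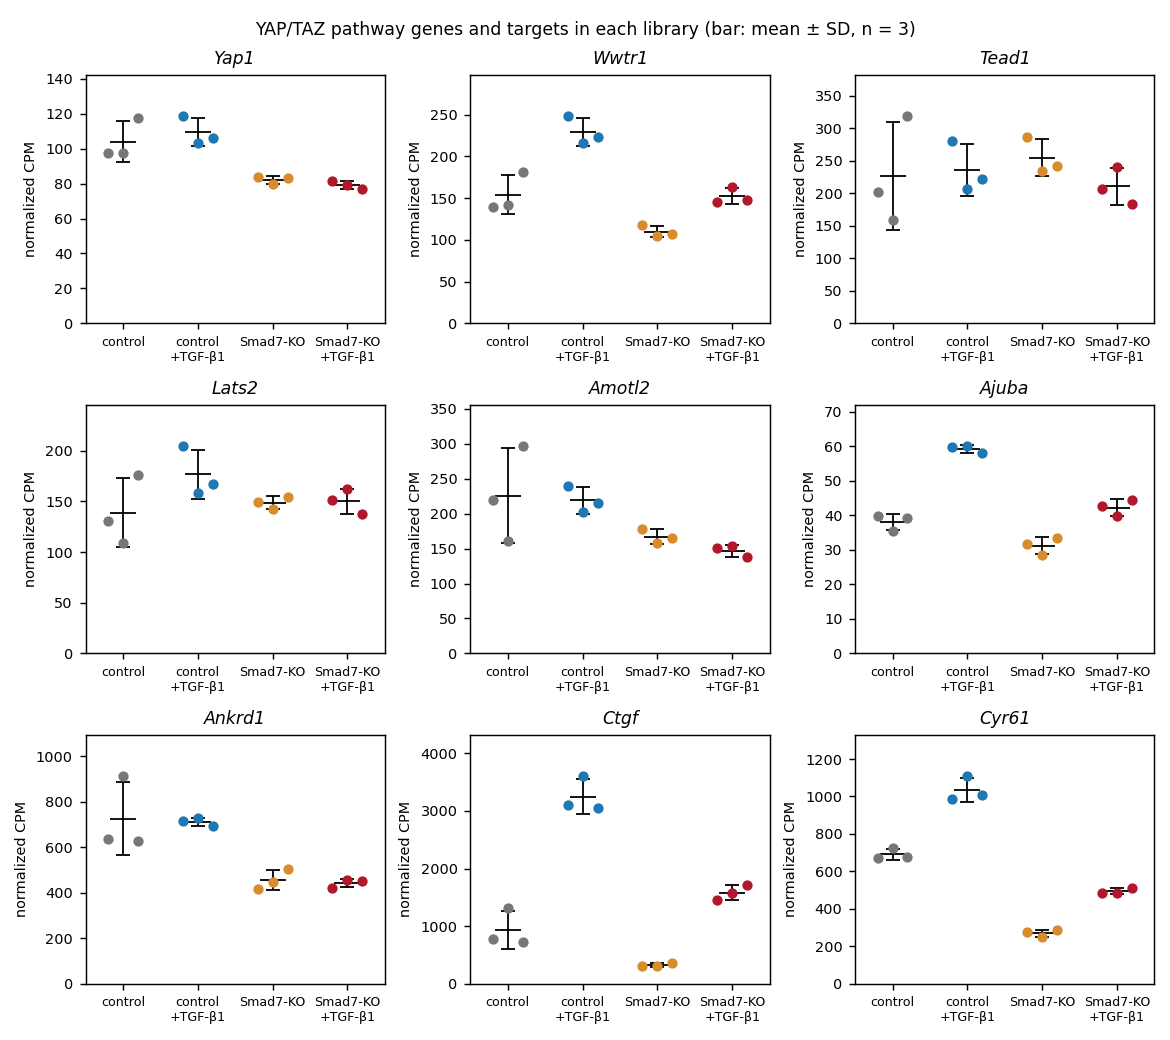
Level of each of the 9 genes in CPM (vertical axis, starting at 0, linear) in the 12 libraries, by group; each point is 1 library, and the black marks are the group mean and SD. Ctgf and Cyr61 are lower in every Smad7-KO library than in every control library of the same stimulation, whereas the groups overlap throughout for Tead1 and Lats2.

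The target genes Ankrd1, Ctgf and Cyr61 were lower in unstimulated Smad7-KO cells than in unstimulated control cells. The 16 other genes of a published tumour signature of YAP/TAZ targets, described below, had a median log2 fold change of 0.13. Of the 9 genes, 6 fell and 0 rose by edgeR's quasi-likelihood test with an adjusted p no higher than 0.05 (Benjamini-Hochberg, all tested genes). Among all tested genes 13.7% fell and 12.1% rose. The median log2 fold change was -0.43 over the 9 genes and -0.02 over all tested genes. In this bulk RNA a lower level can come from fewer cells that express a gene or from less RNA per cell, and these cannot be told apart.

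Ctgf, a matricellular protein of the CCN family that TGF-β induces in many fibroblasts, was at 773, 1310 and 720 CPM in the unstimulated control libraries 1 to 3 and at 311, 310 and 362 CPM in the Smad7-KO libraries. Every Smad7-KO library lay below every control library, and control library 2 was far above the other two. The mean levels were 934 ± 326 and 327 ± 29.5 CPM. Ctgf fell by 1.51 on the log2 scale (SE 0.204, adjusted p = 7.67e-04), to 35.1% of the control level.

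Cyr61, another CCN protein and an immediate target of YAP and TAZ, was at 672, 726 and 677 CPM in control cells and at 276, 250 and 284 CPM in Smad7-KO cells. The groups were tight and did not overlap. It fell by 1.36 on the log2 scale (SE 0.0968, adjusted p = 9.08e-06), to 39.0% of control.

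Ankrd1, a stress-responsive ankyrin repeat protein of muscle that is also a YAP/TAZ target, was at 639, 912 and 628 CPM in control cells and at 417, 445 and 503 CPM in Smad7-KO cells. No library of the groups overlapped. The log2 fold change of Ankrd1 was -0.67 (SE 0.142, adjusted p = 0.00803). A fit to only the 6 unstimulated libraries gave Ankrd1 an adjusted p of 0.0913, so this call depended on the spread shared with the stimulated libraries. With each library's trend on gene length removed the change was -0.41 (adjusted p = 0.00764).

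The coactivator genes fell by less. Wwtr1 was at 140, 142 and 182 CPM in control cells and at 118, 105 and 107 CPM in Smad7-KO cells, without overlap. Its log2 fold change was -0.49 (SE 0.118, adjusted p = 0.0147). Wwtr1 lost the call without Smad7-KO library 2 or without Smad7-KO library 3 (adjusted p from 0.0620 to 0.0669) and in the fit to 6 libraries (adjusted p = 0.0950).

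Yap1 was at 97.3, 97.4 and 117 CPM in control cells and at 84.0, 79.7 and 83.3 CPM in Smad7-KO cells. The groups did not overlap, but the nearest libraries were close. The log2 fold change was -0.34 (SE 0.101, adjusted p = 0.0342), and with the length trend removed -0.62 (adjusted p = 3.85e-04). Yap1 lost the call in 8 of the 12 fits that left out 1 library, namely any of the 6 Smad7-KO libraries, unstimulated control library 1 or TGF-β1 control library 3 (adjusted p from 0.0533 to 0.114). The fit to 6 libraries, the fit without a filter on low counts and both limma fits on FPKM also lost it (adjusted p from 0.0625 to 0.140).

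Ajuba, a LIM protein that binds LATS kinases at cell junctions, was at 39.8, 35.5 and 39.2 CPM in control cells and at 31.9, 28.5 and 33.5 CPM in Smad7-KO cells. The groups did not overlap, though their nearest libraries differed little. The log2 fold change was -0.29 (SE 0.0958, adjusted p = 0.0470). The call was marginal. Ajuba lost it in 11 of the 12 fits that left out 1 library, all but that without unstimulated control library 2 (adjusted p from 0.0507 to 0.168), and in the fit to 6 libraries, the unfiltered fit and both limma fits (adjusted p from 0.0852 to 0.173). The fit with the replicate number as a block lost the Ajuba call as well.

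The remaining 3 genes did not pass the test in unstimulated cells. Amotl2, an angiomotin that binds YAP and TAZ, was at 219, 161 and 296 CPM in control cells and at 178, 158 and 164 CPM in Smad7-KO cells. The groups overlapped because control library 2 lay among the Smad7-KO libraries. Amotl2 was at a log2 fold change of -0.43 (SE 0.177, adjusted p = 0.0847), and Amotl2 passed the test without unstimulated control library 2 (adjusted p = 0.00493) and with the length trend removed (-0.60, adjusted p = 6.43e-04).

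Tead1, the DNA-binding partner, was at 201, 159 and 319 CPM in control cells and at 287, 235 and 242 CPM in Smad7-KO cells. Control values enclosed all 3 Smad7-KO values. The log2 fold change was 0.17 (SE 0.224, adjusted p = 0.580), but Tead1 was the member whose direction depended most on how the counts were handled. Without unstimulated control library 3 it passed the test upward (0.50, adjusted p = 0.0254), without control library 2 it was at -0.03, and with the length trend removed it passed the test downward (-0.31, adjusted p = 0.00885).

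Lats2, a kinase that phosphorylates YAP and TAZ and is itself a target of them, was at 131, 109 and 176 CPM in control cells and at 149, 143 and 155 CPM in Smad7-KO cells. Control values again enclosed all Smad7-KO values. Its log2 fold change was 0.10 (SE 0.162, adjusted p = 0.647), and -0.14 with the length trend removed (adjusted p = 0.136). The deposited interval of Lats2 is wider than that of GENCODE M21 and overlaps Xpo4 on the same strand, which was at 2.11 to 20.7 CPM.

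Fold changes followed gene length in these libraries. Between unstimulated groups, the median log2 fold change was -0.39 in tested genes of 78 to 2250 bases, -0.01 in those of 2250 to 3895 bases and 0.29 in those of 3896 to 106824 bases, bins of 5050 genes each. Ankrd1 and Cyr61 belong to the shortest bin, Ctgf and Ajuba to the middle bin, and Yap1, Wwtr1, Tead1, Lats2 and Amotl2 to the longest. With the trend removed, 8 of the 9 genes fell, all but Lats2, against 15.0% of all tested genes. Ctgf then fell by 1.42 and Cyr61 by 1.18 on the log2 scale, and both kept their call in every fit run, each left-out library included.

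**Figure D2:**
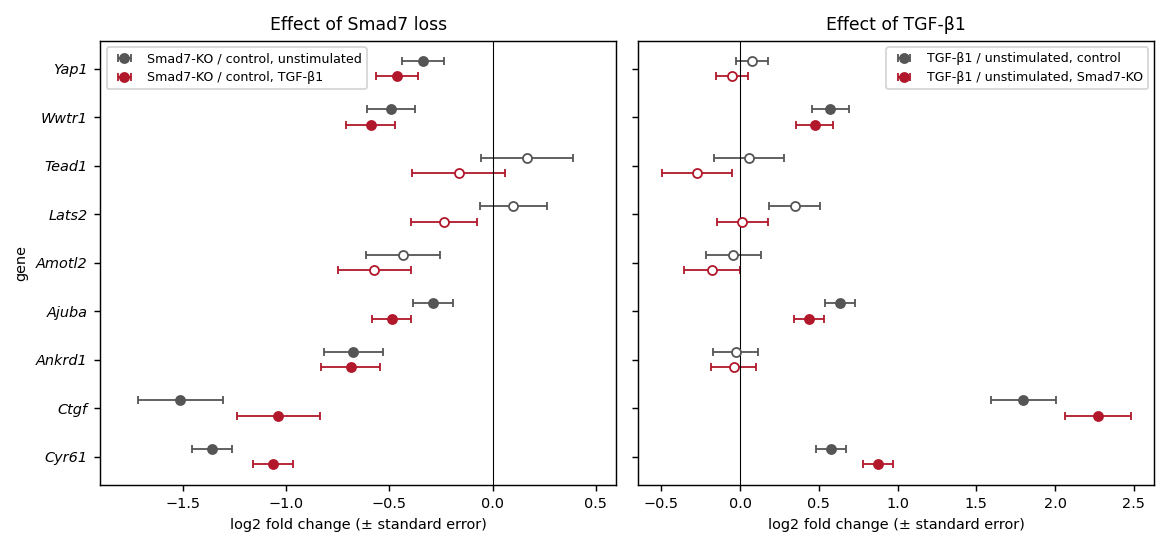
Log2 fold change (horizontal axis) with its standard error for each of the 9 genes, for Smad7 loss (left) and for TGF-β1 (right); filled points passed an adjusted p of 0.05 in edgeR and open points did not. Ctgf and Cyr61 lie farthest to the left under Smad7 loss and Ctgf farthest to the right under TGF-β1.

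With TGF-β1 present, Smad7-KO cells again had lower levels of Ankrd1, Ctgf and Cyr61 and of the coactivator genes. The same number of genes, 6 of 9, fell and 0 rose, and all 9 log2 fold changes were below 0. Among all tested genes 7.23% fell (1096) and 5.72% rose (866), and with the length trend removed 1556 fell and 1958 rose. The median log2 fold change was -0.57 over the 9 genes and -0.02 over all tested genes.

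Ctgf was at 3100, 3601 and 3044 CPM in stimulated control cells and at 1455, 1569 and 1723 CPM in stimulated Smad7-KO cells. The highest Smad7-KO library was well below the lowest control library. Ctgf fell by 1.04 on the log2 scale (SE 0.202, adjusted p = 0.00691), to 48.7% of the control level. Cyr61 was at 989, 1107 and 1006 CPM in stimulated control cells against 486, 487 and 512 CPM in Smad7-KO cells. Its groups were again tight and separate. Cyr61 fell by 1.06 on the log2 scale (SE 0.0961, adjusted p = 5.76e-05), to 47.9% of control.

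Ankrd1 was at 714, 728 and 693 CPM in stimulated control cells and at 421, 454 and 451 CPM in Smad7-KO cells. The stimulated libraries lay closer together than the unstimulated ones and did not overlap between genotypes. Ankrd1 changed by -0.69 on the log2 scale (SE 0.142, adjusted p = 0.00934). Without stimulated Smad7-KO library 1 the adjusted p of Ankrd1 was 0.0502.

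Wwtr1 was at 249, 217 and 223 CPM in stimulated control cells and at 146, 164 and 148 CPM in Smad7-KO cells. No libraries overlapped. Wwtr1 changed by -0.59 on the log2 scale (SE 0.118, adjusted p = 0.00787). Yap1 was at 119, 103 and 106 CPM against 81.6, 79.4 and 77.0 CPM, and also did not overlap. Yap1 changed by -0.46 on the log2 scale (SE 0.101, adjusted p = 0.0119), a call lost without stimulated control library 1 or without stimulated Smad7-KO library 2 or 3 (adjusted p from 0.0501 to 0.0540).

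Ajuba was at 59.9, 60.1 and 58.0 CPM in stimulated control cells and at 42.8, 39.7 and 44.4 CPM in Smad7-KO cells, without overlap. Its change was -0.49 on the log2 scale (SE 0.0952, adjusted p = 0.00684), and it kept its call in every fit run. Amotl2 was at 239, 202 and 215 CPM against 150, 154 and 137 CPM. Although these groups did not overlap, Amotl2 was just outside the threshold at -0.57 (SE 0.178, adjusted p = 0.0559). DESeq2 gave Amotl2 an adjusted p of 0.0298, the fit to the 6 stimulated libraries 0.00218, and the fits without unstimulated control library 2 or 3 from 0.00412 to 0.00576.

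Tead1 was at 280, 206 and 221 CPM in stimulated control cells and at 206, 241 and 184 CPM in Smad7-KO cells, with overlap. Tead1 differed by -0.16 on the log2 scale (adjusted p = 0.647). Lats2 was at 204, 158 and 167 CPM against 151, 162 and 137 CPM, also with overlap. Its log2 fold change was -0.23 (adjusted p = 0.352). With the length trend removed all 9 genes fell in this comparison, Tead1 by 0.45 (adjusted p = 0.00107) and Lats2 by 0.34 (adjusted p = 0.00442) on the log2 scale, against 10.3% of all tested genes. The median log2 fold change here was -0.20 in the shortest bin of genes, -0.02 in the middle and 0.17 in the longest.

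**Figure D3:**
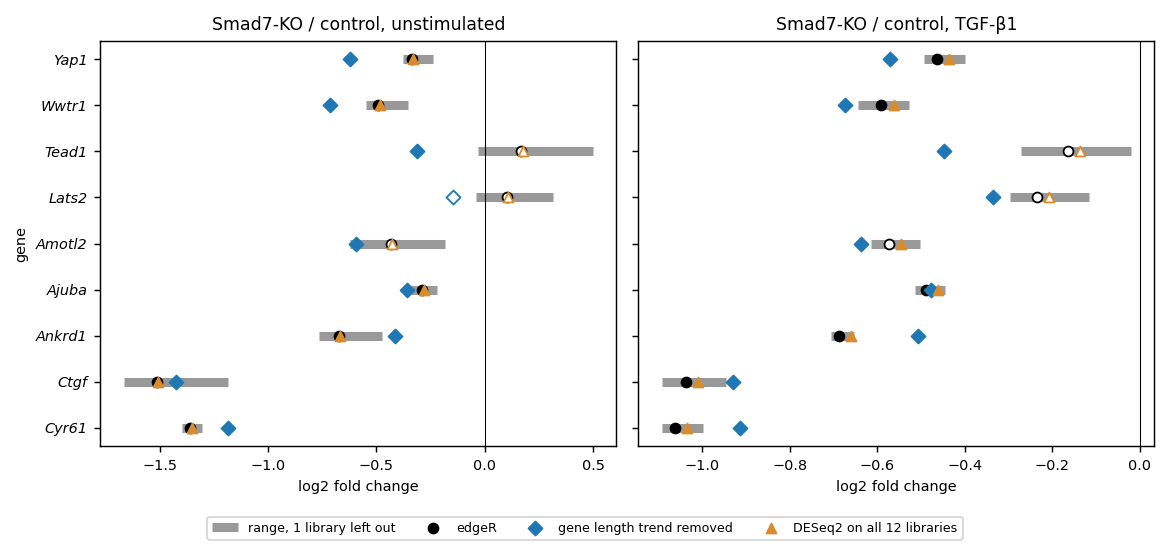
Log2 fold change for Smad7 loss (horizontal axis) of each gene in unstimulated (left) and TGF-β1-stimulated (right) cells, by edgeR, by DESeq2 and with the gene length trend removed; the bar spans the fits that left out 1 library, and open points did not pass an adjusted p of 0.05. Tead1 and Lats2 change sign between settings in unstimulated cells, whereas Ctgf and Cyr61 stay on the same side of 0 and pass the test throughout.

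Levels of other cell types' markers moved with genotype. Of 12 endothelial markers, 11 were tested and 8 fell and 1 rose in each Smad7-KO comparison, and their summed level was 292 to 337 CPM in unstimulated control cells against 51.8 to 61.9 CPM in unstimulated Smad7-KO cells, and 302 to 345 against 52.9 to 55.0 CPM with TGF-β1. Of 10 macrophage markers, 7 rose in unstimulated and 6 in stimulated cells and 0 fell, with sums of 7807 to 10434 against 10606 to 11478 CPM and of 8037 to 9087 against 11382 to 12107 CPM. Fibroblast markers summed to 7437 to 11545 CPM in unstimulated control and 9496 to 10163 CPM in unstimulated Smad7-KO cells, and to 9463 to 10327 against 8736 to 8866 CPM with TGF-β1, with 2 of 10 higher and 2 lower in each comparison. Without TGF-β1 the 2 lower were Thy1 and Tcf21, with log2 fold changes of -1.55 and -1.30, and the higher ones included Dcn at 0.28 (adjusted p = 0.0499). The median over the 10 fibroblast markers was 0.10 in unstimulated and -0.06 in stimulated cells. The shares of all tested genes beside these counts are 12.1% higher and 13.7% lower in unstimulated and 5.72% and 7.23% in stimulated cells.

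Other lists held fewer tested genes. Beside their counts, 13.7% of all tested genes fell and 12.1% rose without TGF-β1, and 7.23% fell and 5.72% rose with it. Mesothelial and epicardial markers, of which 4 and 2 of 6 fell and 0 rose without and with TGF-β1, summed to 277 to 310 against 175 to 212 CPM without and 263 to 276 against 168 to 183 CPM with TGF-β1. Smooth muscle and pericyte markers, of which 3 and 2 of 6 tested fell and 0 rose, summed to 53.6 to 64.2 against 34.9 to 38.7 CPM and to 70.2 to 78.1 against 47.4 to 51.4 CPM. Cardiomyocyte markers, of which 6 of 11 were tested, summed to 36.6 to 80.6 against 20.1 to 27.1 CPM and to 31.1 to 34.5 against 21.9 to 24.4 CPM. Of these 6, 2 fell without TGF-β1 (Tnnt2 and Tnni3) and 0 were called with it, where the median log2 fold change was 0.45, opposite in sign to the difference in the sums. None of the markers in these 6 lists was at 0 in every library. The part of these cell types in the changes of the 9 genes was not tested.

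TGF-β1 raised 4 of the 9 genes in control cells and lowered 0, where 5.04% of all tested genes rose (763) and 3.33% fell (505). With the length trend removed 1085 genes rose and 1119 fell. The median log2 fold change was 0.35 over the 9 genes and -0.03 over all tested genes. This comparison uses the same control libraries as the comparisons of genotype.

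Ctgf rose most. Its control libraries went from 773, 1310 and 720 CPM without TGF-β1 to 3100, 3601 and 3044 CPM with it, a log2 fold change of 1.80 (SE 0.206, adjusted p = 1.80e-04) or 3.48-fold. Cyr61 rose by 0.58 on the log2 scale (SE 0.0954, adjusted p = 0.00232), from a mean of 692 ± 30.1 to 1034 ± 64.1 CPM. The groups did not overlap for either gene. Ankrd1, the other target, was at 726 ± 161 and 712 ± 17.4 CPM, with the stimulated libraries inside the unstimulated range. Its log2 fold change was -0.03 (SE 0.142, adjusted p = 0.936).

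Of the coactivator genes, Wwtr1 passed the test in control cells and Yap1 did not, and their ratio is given below. Wwtr1 rose by 0.57 on the log2 scale (SE 0.118, adjusted p = 0.00969), from a mean of 154 ± 23.6 to 230 ± 16.8 CPM and without overlap, and its adjusted p was 0.0517 without stimulated control library 1. Yap1 was at 104 ± 11.6 and 109 ± 8.17 CPM with overlapping libraries, at a log2 fold change of 0.07 (adjusted p = 0.731). Ajuba rose by 0.64 on the log2 scale (SE 0.0955, adjusted p = 0.00122), from 38.2 ± 2.31 to 59.3 ± 1.14 CPM.

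Tead1, Lats2 and Amotl2 did not pass the test, and their stimulated and unstimulated control libraries overlapped. Tead1 had a log2 fold change of 0.06 (adjusted p = 0.917), Amotl2 of -0.04 (adjusted p = 0.922) and Lats2 of 0.35 (adjusted p = 0.257). Lats2 passed the test without unstimulated control library 3 (0.56, adjusted p = 0.0126) and with the length trend removed (0.23, adjusted p = 0.0439). The fit to only the 6 control libraries called 1 of the 4 genes, Ctgf, and gave Wwtr1 an adjusted p of 0.139, Ajuba 0.0551 and Cyr61 0.111. The share of all tested genes called in that fit is not given here.

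In Smad7-KO cells TGF-β1 also raised 4 of the 9 genes and lowered 0, with 5.33% of all tested genes higher and 4.90% lower. The 4 genes were again Ctgf, Cyr61, Wwtr1 and Ajuba. This comparison shares no libraries with the one in control cells. The median log2 fold change was 0.01 over the 9 genes and -0.01 over all tested genes.

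Ctgf rose from 311, 310 and 362 to 1455, 1569 and 1723 CPM, a log2 fold change of 2.27 (SE 0.209, adjusted p = 3.54e-05) or 4.83-fold. The stimulated means were 1582 ± 134 CPM in Smad7-KO and 3248 ± 307 CPM in control cells. Cyr61 rose by 0.88 on the log2 scale (SE 0.0959, adjusted p = 1.00e-04), from 270 ± 18.1 to 495 ± 14.7 CPM. With TGF-β1, its Smad7-KO libraries were still below the unstimulated control libraries, the lowest of which was at 672 CPM. Ankrd1 was at 455 ± 43.7 and 442 ± 18.4 CPM, with overlap, at a log2 fold change of -0.04 (adjusted p = 0.949).

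Wwtr1 rose from 110 ± 6.85 to 152 ± 9.76 CPM in Smad7-KO cells, by 0.47 on the log2 scale (SE 0.118, adjusted p = 0.0243). The call was lost without any 1 of the 6 Smad7-KO libraries (adjusted p from 0.0515 to 0.114), without the filter on low counts (adjusted p = 0.0525) and in both limma fits (adjusted p from 0.0637 to 0.0643). Ajuba rose from 31.3 ± 2.54 to 42.3 ± 2.35 CPM, by 0.43 on the log2 scale (SE 0.0957, adjusted p = 0.0120). Ajuba lost the call without unstimulated Smad7-KO library 2 or stimulated Smad7-KO library 1 or 3 (adjusted p from 0.0537 to 0.0757), and without the filter on low counts (adjusted p = 0.0518). Yap1 (-0.05, adjusted p = 0.896), Tead1 (-0.27, adjusted p = 0.621), Lats2 (0.01, adjusted p = 0.987) and Amotl2 (-0.18, adjusted p = 0.712) did not pass the test.

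No member passed the test of the interaction, which asks whether Smad7 loss changed the response to TGF-β1. Over all tested genes 3 passed, 0.0198%, and 392 had an unadjusted p under 0.05. Ctgf had a larger log2 response in Smad7-KO than in control cells by 0.47 (SE 0.283, unadjusted p = 0.120) and Cyr61 by 0.30 (SE 0.135, unadjusted p = 0.0493), the only member under 0.05 before adjustment. The lowest adjusted p of a member was 0.980. DESeq2 also called 0 members.

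Ratios within a library asked whether related members moved by unequal amounts, in 2 pairs and 8 exact two-sided permutation tests, for which 3 libraries against 3 allow no p under 0.1. The log2 ratio of Wwtr1 to Yap1 FPKM was 0.73 ± 0.0564 in unstimulated control, 1.24 ± 0.00302 in stimulated control, 0.58 ± 0.0636 in unstimulated Smad7-KO and 1.11 ± 0.102 in stimulated Smad7-KO cells (SD, n = 3). With TGF-β1 the mean ratio was higher by 0.50 in control and by 0.53 in the Smad7-KO libraries, and the difference with Smad7 loss was -0.15 without and -0.13 with TGF-β1. Libraries did not overlap in any of the 4 comparisons, each at the smallest exact permutation p of 0.1 (adjusted p = 0.133), so no test of this design could pass 0.05.

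The log2 ratio of Ctgf to Cyr61 FPKM was 0.08 ± 0.411 in unstimulated control and -0.02 ± 0.0928 in unstimulated Smad7-KO cells, with overlap (difference -0.10, exact permutation p = 0.900). With TGF-β1 it was 1.35 ± 0.0517 in control and 1.38 ± 0.0851 in Smad7-KO cells, also with overlap (difference 0.02, exact permutation p = 0.800). With TGF-β1 the mean of this ratio was higher by 1.27 in control and 1.40 in Smad7-KO cells, each without overlap (exact permutation p = 0.1, adjusted p = 0.133, so neither passes 0.05).

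**Figure D4:**
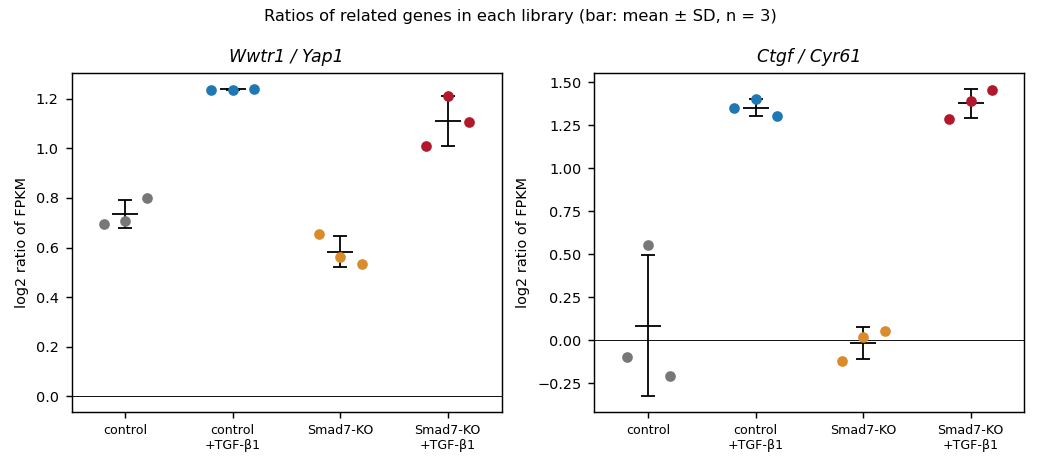
Log2 ratio of FPKM values (vertical axis) of Wwtr1 to Yap1 and of Ctgf to Cyr61 in the 12 libraries by group; each point is 1 library, and the black marks are the group mean and SD. Both ratios are higher in every stimulated library than in every unstimulated library of the same genotype.

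Of 21 genes of the Hippo kinase cascade and its upstream regulators, 4 rose and 2 fell with Smad7 loss in unstimulated cells, where 12.1% of all tested genes rose and 13.7% fell. The median log2 fold change of this list was 0.26. The list's direction turned with the length trend removed, to 3 higher and 6 lower with a median of -0.048, and without unstimulated control library 2, to 1 higher and 2 lower with a median of -0.060. Without unstimulated control library 3 it was 9 higher and 1 lower with a median of 0.36. Of all tested genes 15.0% fell with the length trend removed, and the shares in fits without 1 library are not given here. With TGF-β1 present 1 gene of the list rose and 2 fell, against 5.72% and 7.23% of all tested genes, with a median of 0.08. With the length trend removed 2 rose and 6 fell there, with a median of -0.030, where 10.3% of all tested genes fell. Leaving out 1 library gave 0 to 4 higher and 1 to 2 lower there, with 4 higher without unstimulated control library 2. Stk4, which encodes the Hippo kinase MST1, rose from 74.3 ± 16.9 to 125 ± 2.63 CPM in unstimulated cells (log2 fold change 0.75, adjusted p = 0.00647) and also rose in stimulated cells (0.58, adjusted p = 0.0264), the latter call being lost without any 1 of the stimulated libraries but Smad7-KO library 3 (adjusted p from 0.0523 to 0.112 over these and both limma fits). Taok3, a kinase upstream of MST, passed the test in unstimulated cells (0.66, adjusted p = 0.0428) but lost the call in 9 of the 12 fits that left out 1 library and in the fit to 6 libraries (adjusted p from 0.0535 to 0.145). Wtip, an Ajuba-family LIM protein, fell in both comparisons (-0.65, adjusted p = 0.00642 and -0.71, adjusted p = 0.00540). Wwc1, which encodes the scaffold KIBRA, also fell in both (-0.64, adjusted p = 0.0405 and -0.83, adjusted p = 0.0223), calls lost in 11 of the 12 fits that left out 1 library, all but that without unstimulated control library 2, and without any 1 of the 6 stimulated libraries (adjusted p from 0.0606 to 0.0921). The other unstimulated calls were Mob1a and Limd1, both higher, lost in 11 and 9 of those 12 fits. Stk4 and Wtip kept their unstimulated calls in all 12, and both lost them in the fit to 6 libraries (adjusted p = 0.0592 and 0.0617).

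TGF-β1 raised 0 of these 21 genes in either genotype and lowered 2 in control and 3 in Smad7-KO cells, with medians of -0.03 and -0.17. Of all tested genes, 5.04% rose and 3.33% fell in control and 5.33% rose and 4.90% fell in Smad7-KO cells. Without unstimulated control library 3, the control comparison had 3 higher and 2 lower genes of this list and a median of 0.23, and the shares of all tested genes in that fit are not given here. Frmd6, which encodes the FERM protein Willin, fell from 78.7 ± 18.0 to 40.5 ± 3.78 CPM in control (-0.96, adjusted p = 0.00151) and from 94.4 ± 3.22 to 43.8 ± 2.18 CPM in Smad7-KO cells (-1.11, adjusted p = 4.77e-04). Sav1, the scaffold of the MST kinases, fell in control (-0.46, adjusted p = 0.00370) and in Smad7-KO cells (-0.47, adjusted p = 0.00273). Both genes kept these calls in all 12 fits that left out 1 library, and in control cells lost them in the fit to 6 libraries (adjusted p = 0.0591 and 0.121). Wwc1 fell in Smad7-KO cells (-0.75, adjusted p = 0.0404), a call lost in 9 of the 12.

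Of 6 other TEAD factors and their cofactors, 5 were tested, all but Vgll2. Tead2 fell with Smad7 loss in unstimulated cells, from 25.9 ± 7.19 to 12.7 ± 1.51 CPM (log2 fold change -1.02, adjusted p = 0.00370, and 0.0555 in the fit to 6 libraries), 1 of 5 against 13.7% of all tested genes. With TGF-β1 the only call was Tead4, at a low level of 2.90 ± 0.689 against 1.21 ± 0.116 CPM (-1.26, adjusted p = 0.0405), against 7.23% of all tested genes. Tead4 lost this call in 9 of the 12 fits that left out 1 library, among them each of those without a Smad7-KO or stimulated control library, and with the replicate number as a block (adjusted p from 0.0578 to 0.122). It is outside the naming rule and was named after its values were seen. With TGF-β1 against no stimulation, 0 of the 5 passed the test in either genotype. Of all tested genes, 5.04% rose and 3.33% fell in control and 5.33% rose and 4.90% fell in Smad7-KO cells. The medians over the 5 genes were -0.08, -0.30, 0.38 and 0.17 in the comparisons as ordered above.

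Among 16 other genes of a published tumour signature of YAP/TAZ targets, all tested, the direction was mixed. With Smad7 loss 2 rose and 3 fell in unstimulated cells, against 12.1% and 13.7% of all tested genes, and 1 rose and 4 fell in stimulated cells, against 5.72% and 7.23%. The medians were 0.13 and 0.01. Without unstimulated control library 3 the unstimulated counts were 7 higher and 3 lower, and the shares of all tested genes in that fit are not given here. Igfbp3, an IGF-binding protein, fell from 26.6 ± 2.60 to 10.5 ± 1.37 CPM in unstimulated cells (log2 fold change -1.34, adjusted p = 1.15e-04) and from 20.1 ± 2.06 to 6.69 ± 0.456 CPM in stimulated cells (-1.59, adjusted p = 4.52e-05). Tgfb2, the ligand TGF-β2, fell in both (-0.69, adjusted p = 0.00287 and -0.75, adjusted p = 0.00233), as did the matrix protein gene Ccdc80 (-0.43, adjusted p = 0.0121 and -0.51, adjusted p = 0.00684). The unstimulated call of Ccdc80 was lost without unstimulated Smad7-KO library 2 and in the fit to 6 libraries (adjusted p from 0.0659 to 0.110). Crim1 fell in stimulated cells (-0.78, adjusted p = 0.0202), a call lost without any 1 of the stimulated libraries but control library 2 (adjusted p from 0.0510 to 0.0723). Nt5e, the ectonucleotidase CD73, rose in unstimulated cells (0.62, adjusted p = 0.00476), to 24.5 ± 1.33 CPM, with an adjusted p of 0.0590 in the fit to 6 libraries.

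TGF-β1 raised 2 of these 16 genes and lowered 0 in control cells, and raised 1 and lowered 2 in Smad7-KO cells, with medians of 0.05 and 0.03. In the fit to all 12 libraries, all tested genes rose and fell in 5.04% and 3.33% of cases in control and in 5.33% and 4.90% in Smad7-KO cells. Without unstimulated control library 3 the control comparison had 6 of the 16 higher and 0 lower. The shares of all tested genes in that fit are not given here. Nuak2, a kinase of the AMPK family, rose from 18.4 ± 1.14 to 37.5 ± 1.50 CPM in control cells (log2 fold change 1.02, adjusted p = 4.92e-05) and from 20.2 ± 1.62 to 38.2 ± 0.946 CPM in Smad7-KO cells (0.92, adjusted p = 8.05e-05). F3, tissue factor, rose in control cells (0.54, adjusted p = 0.00464, and 0.120 in the fit to 6 libraries). In Smad7-KO cells Crim1 (-0.69, adjusted p = 0.0385) and Igfbp3 (-0.65, adjusted p = 0.00987) fell, calls that Crim1 lost without any 1 of the 6 Smad7-KO libraries or stimulated control library 3 (adjusted p from 0.0571 to 0.140 over these and both limma fits) and Igfbp3 without Smad7-KO library 3 of either stimulation (adjusted p from 0.0515 to 0.0563).

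Of the other 4 CCN family genes, Nov, Wisp1 and Wisp2 were tested and Wisp3 was not. Wisp2, a CCN protein without the C-terminal domain of its relatives, fell with Smad7 loss from 1616 ± 443 to 727 ± 17.9 CPM in unstimulated cells (log2 fold change -1.15, adjusted p = 0.00162) and from 1568 ± 188 to 823 ± 81.2 CPM in stimulated cells (-0.93, adjusted p = 0.00613). Wisp1 rose with TGF-β1 from 36.0 ± 12.9 to 239 ± 36.7 CPM in control (2.73, adjusted p = 2.23e-05) and from 42.1 ± 4.97 to 217 ± 18.9 CPM in Smad7-KO cells (2.36, adjusted p = 4.56e-05). Neither gene passed the test in the contrasts not named here, and Nov passed none of the 4, so 1 of the 3 tested genes was called in each comparison. Wisp1 and Wisp2 kept their calls in every fit run.

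**Figure D5:**
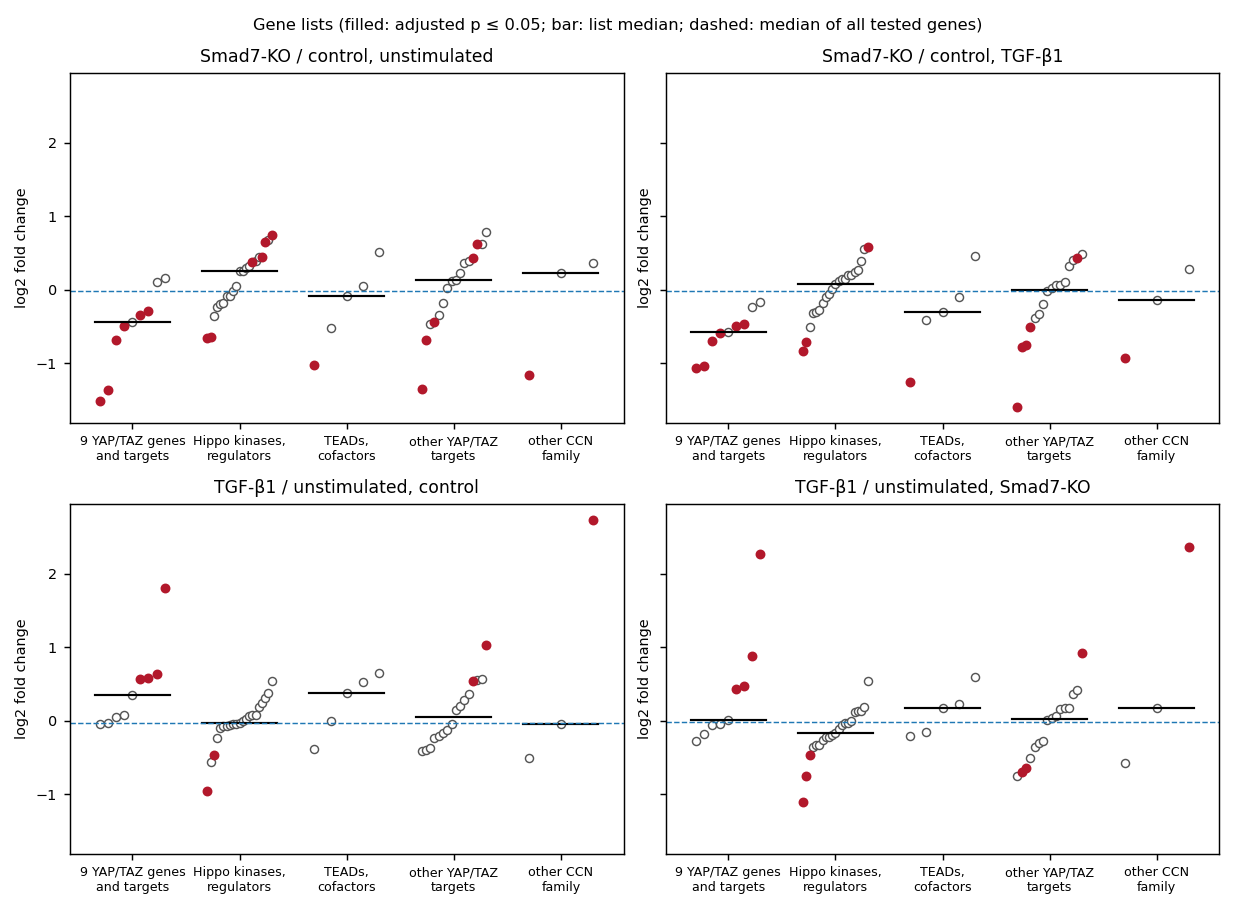
Log2 fold change (vertical axis) of every tested gene in the 9 YAP/TAZ genes and in 4 lists of related genes, in the 4 comparisons; filled points passed an adjusted p of 0.05, and the bar marks the list median. The 9 genes have their medians below 0 in both Smad7-KO comparisons, at -0.43 and -0.57, whereas the 16 other target genes have medians of 0.13 and 0.01.

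The genes whose pattern was most like each target gene were found by the root mean square (RMS) difference of log2 CPM values, each centred on the gene's own mean, over the 12 libraries and 12202 genes. Nearest to Ctgf, whose own values had an RMS of 1.23, were Hbegf (RMS difference 0.190), Foxs1 (0.246), Foxc2 (0.269), Frmpd1 (0.331) and Fam101b (0.336). Hbegf encodes an EGF-family ligand, and its log2 fold changes were -1.25 and -1.21 with Smad7 loss in unstimulated and stimulated cells and 2.14 with TGF-β1 in Smad7-KO cells. Nearest to Cyr61, with an own RMS of 0.713, were Anxa8 (0.121), Pxdc1 (0.147), Csrnp1 (0.149), Tbxa2r (0.178) and Nrep (0.190). Nearest to Ankrd1, with an own RMS of 0.364, were Rab3ip (0.0971), Rcn2 (0.0992), Rcn1 (0.102), Pawr (0.112) and Agpat4 (0.113). The nearest genes of each target were chosen for their likeness, so their values are a description.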

How the data were processed

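Poly(A) RNA of cultured cardiac fibroblasts was sequenced as 100-bp paired-end reads in 4 conditions with 3 libraries each. The authors deposited a table of 35275 genes with raw read counts, not normalized, and with FPKM values. In every gene the FPKM equalled the count over the gene's length and the library's total (within 0.01 percent). The submitters' processing notes name CASAVA, TopHat2 2.0, Cufflinks 2.1.1 and HTSeq 0.6.1 and the builds mm10 and GRCm38.p6 without saying what each was used for, and the annotation release is not given in the sources used here. There were 0 columns without a sample.

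All genes' counts went into edgeR 4.0.16 (R 4.3.3), with TMM scaling, filterByExpr with a minimum count of 10 (15150 genes kept) and a robust quasi-likelihood fit to all 12 libraries, with the groups as the only term. Genes at a Benjamini-Hochberg adjusted p of 0.05 or less were called. The standard error is the log2 fold change over the root of its F statistic. CPM are TMM-scaled, and FPKM values are used for levels between genes. Ratios were tested by exact permutation. Alternatives were DESeq2 1.42.0, edgeR on the 6 libraries of a comparison, DESeq2's size factors, no filter, limma 3.58.1 on log2(FPKM + 1) and log2(FPKM + 0.1) for genes that reached 1 FPKM in a minimum of 3 libraries, a block for the replicate number, removal of each library's loess trend on gene length (span 0.3), and leaving out each library. The limma fold changes understate the change of low genes. The scripts were tested on simulated counts.

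The members and lists were chosen with earlier results of these data known. In the edgeR fit described above, a list is described by its counts beside the shares of all tested genes. All 9 members are named, with up to 4 genes per list and comparison that have the largest absolute log2 fold change among called genes whose average log2 CPM was 1 or more, and the 5 genes most like each of Ctgf, Cyr61 and Ankrd1. Mob1a, Limd1, Tead4 and Nov were named beyond this rule. Depth was 19056916 to 25371321 counts per library, and 3 libraries per group limit the precision.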

Additional observations from a re-analysis of the deposited data

How the results depend on the processing

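Of 351 values of single members under alternatives other than a left-out library, 309 kept direction and side of the threshold, 8 passed it newly, 19 no longer passed it and 15 changed sign. Over 540 values with 1 library left out, these numbers were 483, 5, 35 and 17. The count of called members was 6, 6, 4 and 4 in the 4 comparisons in their order in the text (Smad7 loss unstimulated, then with TGF-β1, TGF-β1 in control, then in Smad7-KO cells). It was 2, 7, 1 and 4 with only the 6 libraries of a comparison, 4, 6, 4 and 2 without a filter on low counts, 6, 7, 4 and 4 with DESeq2, 8, 9, 5 and 5 with the gene length trend removed, and 4, 6, 4 and 3 with both limma fits. With 1 library left out it ran from 3 to 7, 5 to 7, 3 to 5 and 2 to 4. It was 3 without unstimulated Smad7-KO library 2 or 3 in the first comparison, and 2 without unstimulated Smad7-KO library 2 or stimulated Smad7-KO library 1 or 3 in the last. The interaction called 0 members in every fit run. The share of all tested genes called also changes with the fit. With the length trend removed, 15.0% fell with Smad7 loss in unstimulated and 10.3% in stimulated cells, against 13.7% and 7.23% without that removal. The shares in the other fits are not given here, so the moves in these counts cannot be told from moves in all genes.

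Sign changes came mostly at small values. With the length trend removed, Tead1 was at -0.31 and Lats2 at -0.14 for Smad7 loss in unstimulated cells, Yap1 at -0.071, Tead1 at -0.10 and Ankrd1 at 0.055 for TGF-β1 in control cells, and the interaction was 0.050 for Yap1 and 0.042 for Wwtr1. Under limma with pseudocounts of 1 and 0.1, TGF-β1 in control cells gave 0.026 and 0.028 for Amotl2 and 0.023 in both for Ankrd1, and TGF-β1 in Smad7-KO cells gave -0.026 and -0.027 for Lats2. The interaction of Ankrd1 was 0.0095 with DESeq2 and 0.011 with its size factors. With 1 library left out, Smad7 loss in unstimulated cells ran from -0.030 to 0.50 for Tead1 and from -0.042 to 0.31 for Lats2. TGF-β1 in control cells ran from -0.14 to 0.39 for Tead1, -0.24 to 0.21 for Amotl2 and -0.12 to 0.17 for Ankrd1, and in Smad7-KO cells from -0.044 to 0.071 for Lats2 and -0.10 to 0.037 for Ankrd1. The interaction ran from -0.39 to 0.069 for Amotl2 and -0.20 to 0.078 for Ankrd1. The Ctgf to Cyr61 difference with Smad7 loss ran from -0.25 to 0.13 unstimulated and from -0.014 to 0.070 with TGF-β1. The cause was not tested.

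Same-numbered libraries of different groups did not deviate together (18 pairs, r from -0.36 to 0.52, 1 of them over 0.1), so the numbers are not taken to pair the samples. With the replicate number as a block, the counts of called members were 4, 6, 4 and 4, with Yap1 (adjusted p = 0.0520) and Ajuba (adjusted p = 0.0571) no longer called in unstimulated cells. The counts of the 4 related lists were recomputed under the same alternatives, a choice made after seeing the data, as was the count of fits in which each of their genes kept its call. With only the 6 unstimulated libraries 0 of the 21 Hippo cascade genes and regulators were called, and with only the 6 Smad7-KO libraries TGF-β1 raised 2 and lowered 8. The shares of all tested genes called in 6-library fits and in fits without 1 library are not given here. List counts from such fits are a description.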
